A study of Mus musculus with 54 samples.

Results

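The 44 genes described here encode the structural proteins of the extracellular matrix and of basement membranes, together with the enzymes that crosslink them and the inhibitors that limit their breakdown. They were chosen by symbol, as the rows of the testis and ovary count tables that carry 1 of 44 listed names, out of 26264 genes listed. The list holds 5 fibrillar collagens, 3 collagen VI chains, 4 basement membrane collagens, 7 laminin chains, 3 genes for nidogens and perlecan, 4 other proteoglycans, 6 genes for fibronectin and matricellular proteins, 6 elastic fibre genes, 2 crosslinking enzymes, and 1 protease with 3 inhibitors. All 44 passed the filter on low counts in every comparison, so no member was left out of any count below.

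RNA came from whole testes of 10-week-old and whole ovaries of 8-week-old mice, in 18 groups of 3 libraries. In the first generation (F1), pregnant mice and then their progeny drank water with a mixture of the anti-inflammatory drug ibuprofen (IBU), its metabolite 2hIBU, the anti-inflammatory drug diclofenac (DCF) and the contraceptive oestrogen 17a ethinyl-estradiol (EE2), from 8.5 days post-coitum onward. Dose 1 was IBU 11.3, 2hIBU 90, DCF 22.5 and EE2 2.25 ng/L, dose 2 was IBU 113, 2hIBU 225, DCF 112 and EE2 45 ng/L, and F1 controls received 0.001% ethanol. The second generation (F2) is labelled as untreated and came from 6 crosses of F1 animals: control parents, a dose 1 or dose 2 mother with a control father, a dose 1 or dose 2 father with a control mother, and dose 2 in both parents. Every mouse, F1 controls and offspring of control parents included, descends from the same mated stock and shared the housing and the diet, and no strain is given in the sources used here. Nothing in the labels says that the libraries A, B and C of a group came from separate animals or litters, so a p-value here reflects no more than how libraries of a group vary, which may be technical.

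The extracellular matrix is the protein meshwork between cells. Fibrillar collagens bear tension in the stroma, collagen VI forms beaded filaments around cells, and the basement membrane is a thin sheet in which a collagen IV network and a laminin network are bridged by nidogens and perlecan. In the testis such a sheet surrounds each seminiferous tubule between Sertoli cells and the muscle-like peritubular cells, and in the ovary it surrounds each follicle, where the matrix is rebuilt at ovulation and as the corpus luteum forms.

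Testis libraries held 31.8 to 46.4 M counts (median 37.7) and ovary libraries 35.6 to 102 M counts (median 43.8). All listed markers of Sertoli, Leydig and germ cells were detected in every testis library, and all of those of granulosa cells and oocytes in every ovary library. Levels below are in CPM, counts per M counts of the library after TMM scaling (M, 10 to the power of 6). A few libraries stood apart in markers of other structures. In the testis, 5 epididymis markers summed to 4.90 and 4.21 CPM in libraries A and B of the offspring of dose 2 parents and to at most 0.515 elsewhere, with 1 to 4 of the 5 at 0 in each library. In the ovary, 5 oviduct markers summed to 1187 and 416 CPM in F1 dose 2 libraries A and B and to 175 in F1 control library A, against 21.6 to 41.1 elsewhere. Germ cell markers were highest in F1 control library C (11650 CPM) and F1 dose 1 library A (10630) of the testis. For some of the comparisons that hold these libraries, results are given below with and without them.

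The matrix genes were a far larger share of the ovary transcriptome than of the testis transcriptome. In the 12 unexposed libraries, F1 controls and offspring of control parents, 43 of 44 members were higher in the ovary and none was lower. Their median log2 difference was 4.01. Of the 19176 genes tested, 90.1% differed, 8631 higher in the ovary and 8639 lower, with a median of 0.01 over all genes. The tissues also differed in sex and age and their counts were deposited separately, so the comparison cannot separate tissue from these. Neither tissue's value says how much matrix a cell makes, since in whole organs fewer cells of a type and less RNA per cell cannot be told apart. Every role class was higher in the ovary, from a median of 2.94 for nidogens and perlecan to 5.00 for the collagen VI chains. Tnc, which encodes the matricellular protein tenascin C, was 3.78 ± 0.77 CPM in the testis and 619 ± 314 in the ovary (SD, n = 6 each, both tissues scaled together), a log2 difference of 7.36 ± 0.46 (SE, adjusted p = 1.67e-09). Vcan, the large aggregating proteoglycan versican of the ovulating follicle, was 1.51 ± 0.41 against 193 ± 107 CPM (6.97 ± 0.39, adjusted p = 4.505e-10). Thbs1, for thrombospondin 1, followed with 5.21 ± 0.81 against 609.5 ± 188 CPM (6.86 ± 0.25). Timp1, an inhibitor of matrix metalloproteinases, and Col5a2, a minor fibrillar collagen chain, completed the largest 5, at 6.64 ± 0.56 and 5.89 ± 0.25. For all 5 the lowest ovary library lay above the highest testis library.

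Timp2, another metalloproteinase inhibitor, was the exception. It was 242 ± 48.9 CPM in the unexposed testes and 269 ± 38.8 in the ovaries (SD, n = 6 each), and the tissues overlapped (log2 difference 0.17 ± 0.14, adjusted p = 0.259). This value depends on how the tissues are put on 1 scale. The scaling factors were 0.798 to 0.844 in testis and 1.14 to 1.26 in ovary libraries, the median of all genes moved from 0.01 to -0.27 with relative log expression (RLE) factors and to 0.57 with total counts, and Timp2 read -0.11 (adjusted p = 0.450) and 0.72 (adjusted p = 2.209e-04). Postn, for the matricellular protein periostin, also overlapped (0.99 ± 0.36, adjusted p = 0.0193) and missed the threshold with RLE factors (adjusted p = 0.0806). Per length of transcript, Sparc, which encodes a collagen-binding matricellular glycoprotein, was the most abundant member in both tissues, at 124 ± 14.9 CPM per kilobase of exon (RPKM) in unexposed testes and 631 ± 163 in unexposed ovaries (SD, n = 6). Timp2 ranked 2 of 44 in the testis at 65.3 RPKM and 14 in the ovary at 72.6, and Mgp, for the calcification inhibitor matrix Gla protein, ranked 4 at 15.9 and 2 at 420.1.

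**Figure D1:**
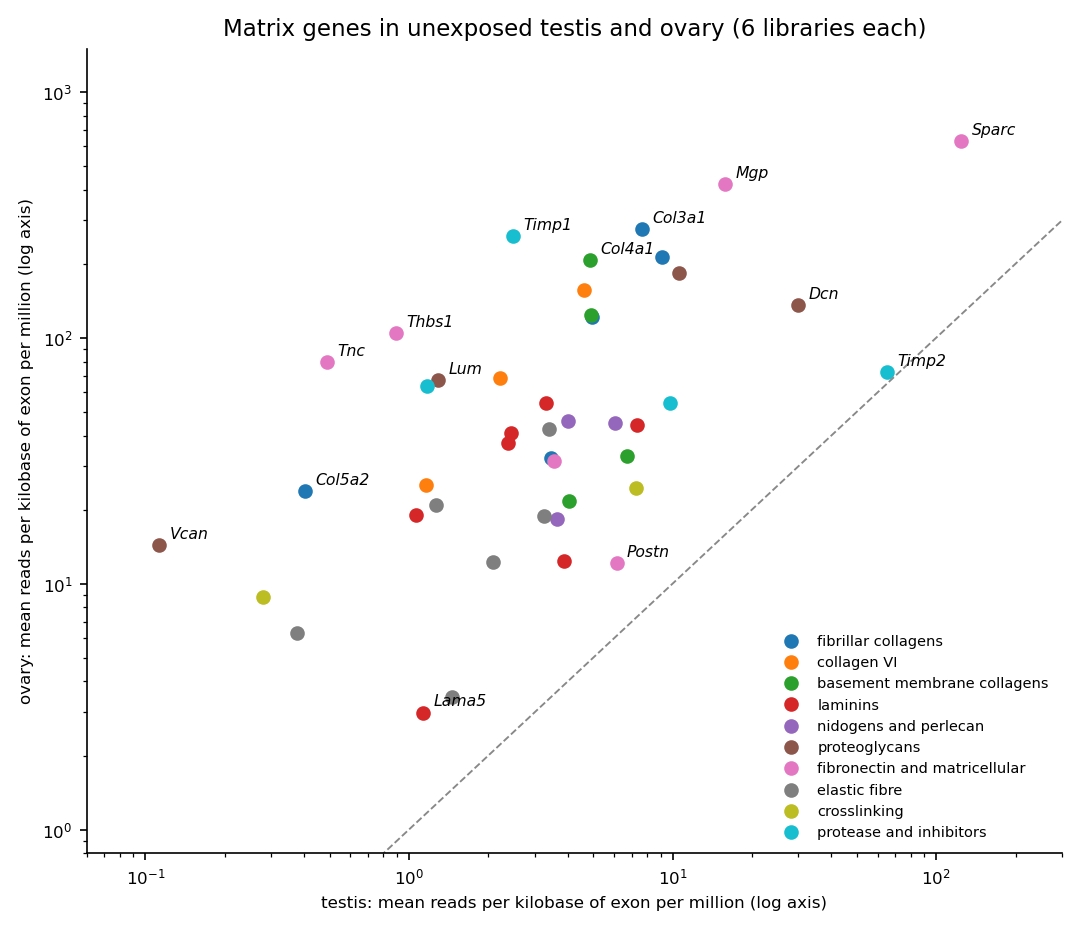
Level of each of the 44 genes in unexposed testes (horizontal axis) and ovaries (vertical axis), in RPKM on log axes, as the mean of 6 libraries per tissue with both tissues scaled together. Sparc lies highest on both axes, Timp2 lies next to the line of equal level, and Tnc, Vcan, Thbs1 and Timp1 lie farthest above it.

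Within each tissue, the most abundant member of each class had the following range of group means over the 9 groups. In the testis, where levels are in CPM scaled within the tissue, Sparc went from 253 ± 0.35 in F1 controls to 308 ± 19.0 in offspring of control parents (SD, n = 3), the narrowest relative range over the 27 libraries (245.8 to 335.7, 1.37-fold). Col1a2, a chain of the main fibrillar collagen, went from 26.7 ± 0.92 in F1 controls to 54.2 ± 10.9 in offspring of control parents. Col6a1, a collagen VI chain, had its lowest and highest means in the same 2 groups, at 10.7 ± 0.47 and 20.8 ± 2.75. Those 2 groups are both unexposed, so for these collagens the distance between controls of different generations was as large as any contrast with exposure in the testis. Col15a1, a collagen of basement membrane zones, varied least between groups among these class leaders, from 33.4 ± 4.10 to 39.0 ± 2.39. Lamb2, the laminin beta 2 chain, went from 28.1 ± 3.86 in offspring of dose 2 fathers to 42.9 ± 3.38 in F1 dose 2. Hspg2, which encodes perlecan, went from 39.7 ± 4.95 in F1 controls to 54.8 ± 9.70 in F1 dose 2. Dcn, for the collagen-binding proteoglycan decorin, lay between 38.2 ± 4.85 and 52.3 ± 9.75. Fbn1, the microfibril protein fibrillin 1, lay between 10.4 ± 1.78 and 15.3 ± 0.99. Loxl1, a lysyl oxidase that crosslinks elastin, was lowest in offspring of dose 2 fathers at 14.7 ± 1.12 and highest in F1 controls at 22.4 ± 4.37.

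In the ovary, in CPM scaled within that tissue, Col3a1, a fibrillar collagen of soft stroma, went from 1299 ± 277 CPM in offspring of dose 1 mothers to 2058 ± 497 in offspring of dose 2 mothers (SD, n = 3). Col4a1, the main collagen IV chain, went from 1234 ± 115 in offspring of dose 2 fathers to 1951 ± 234 in offspring of dose 2 mothers. The 3 libraries of a group differed widely for Col3a1, from 1666 to 2617 CPM in the offspring of dose 2 mothers. Hspg2 was lowest in offspring of dose 2 fathers (585 ± 17.5) and highest in F1 dose 1 (1022 ± 76.6). Lama1, the laminin alpha 1 chain, had group means of 427 ± 73.1 to 545 ± 146, and Timp3, a metalloproteinase inhibitor that stays bound to the matrix, of 266 ± 14.2 to 347 ± 75.5. Bgn, for the small proteoglycan biglycan, lay between 409.8 ± 52.8 and 615 ± 90.5. Sparc went from 1692 ± 229 to 2501 ± 436, Fbn1 from 249 ± 11.5 to 343 ± 40.0, Col6a1 from 759 ± 93.2 to 1039 ± 248 and Loxl1 from 79.7 ± 10.1 to 118 ± 33.9. Among all 44, Tnc spanned the widest range over the 27 ovary libraries, from 140.8 to 1853 CPM (13.2-fold), followed by Timp1 from 40.7 to 481 (11.8-fold) and Postn from 8.29 to 78.1 (9.42-fold). Lamb1, the laminin beta 1 chain, was the steadiest at 328 to 422 CPM (1.29-fold).

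Summed up per library as the median over the 44 members of their log2 distance from the tissue mean, the list separated some groups in the testis. The 3 libraries of offspring of control parents were at 0.17, 0.23 and 0.23, the F1 controls at -0.13, -0.12 and -0.16, and F1 dose 2 at 0.32, 0.20 and -0.18. Libraries of the 5 crosses with an exposed parent lay between -0.18 and 0.14, below all 3 of their controls. Offspring of control parents held the highest group mean for 15 of 44 members, and F1 controls the lowest for 17. In the ovary, offspring of dose 2 mothers were at 0.30, 0.03 and 0.19 and held the highest mean for 19 of 44 members and the lowest for none, and libraries of the other groups lay between -0.27 and 0.28. Highest and lowest group means were not counted over all genes, so these counts do not show whether such groups are extreme for genes in general.

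**Figure D2:**
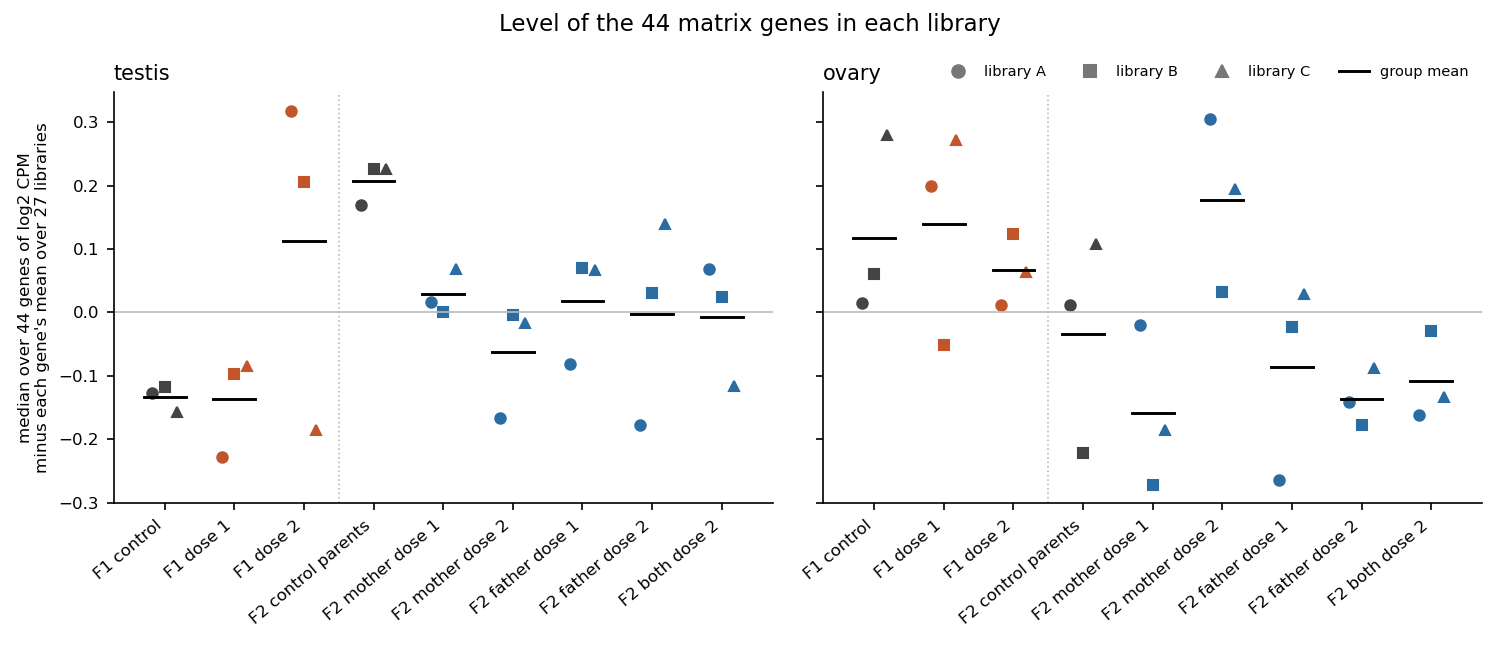
Median over the 44 genes of the log2 distance from the tissue mean, 1 point per library, by group, for testis and ovary (n = 3 libraries per group, horizontal bars mark group means). In the testis the 3 libraries of offspring of control parents (0.17 to 0.23) lie above all libraries of the other F2 groups, and F1 dose 2 library C (-0.18) lies apart from libraries A and B (0.32 and 0.20).

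In F1 testes, no matrix gene passed the test at either dose, and most values lay above the controls at dose 2. At dose 1, 0 of 44 members passed, beside 0.0317% of the 18923 genes tested, 6 members had an unadjusted p under 0.05 (1618 of all genes), and DESeq2 called none. Without the 2 libraries highest in germ cell markers, a setting chosen after seeing the data, 0 members passed, beside 2.38% of all genes. The median log2 difference was 0.04 against 0.00 for all genes, with 28 of 44 positive. Fbln5, for the elastic fibre assembly protein fibulin 5, had the smallest p, with 7.44, 8.41 and 7.61 CPM at dose 1 against 6.92, 5.51 and 5.35 in controls (log2 difference 0.41 ± 0.13, adjusted p = 0.434). Sparc followed with 267, 299.9 and 296 CPM against 253, 253 and 254 (0.19 ± 0.067, adjusted p = 0.478), and Col6a3, a collagen VI chain, with 7.81, 12.5 and 11.2 against 7.42, 6.90 and 7.31 (0.55 ± 0.20, adjusted p = 0.486). In all 3 genes the lowest dose 1 library lay above the highest control.

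At dose 2, 0 of 44 members passed, beside 2.21% of all genes, yet 21 had an unadjusted p under 0.05, a share of 47.7% against 23.6% of all genes (4461). The median was 0.29 against 0.01 for all genes, 35 of 44 were positive (79.5% against 50.8%), and for 15 members every dose 2 library lay above every control (34.1% against 17.9% of all genes), with the opposite for 1 (2.27% against 17.6%). All 5 fibrillar collagens, 3 collagen VI chains, 4 basement membrane collagens, 7 laminins and 3 nidogen and perlecan genes were positive, with class medians of 0.60, 0.63, 0.30, 0.33 and 0.45, while 2 of 4 proteoglycans and 1 of 2 crosslinking enzymes were. The smallest p-values belonged to laminin chains, the cross-shaped trimers that start basement membrane assembly. Lamb2 was 46.2, 43.0 and 39.5 CPM at dose 2 against 35.2, 34.3 and 32.5 in controls (log2 difference 0.33 ± 0.088, adjusted p = 0.0694). Lama1 was 25.4, 25.5 and 25.7 against 18.3, 19.3 and 15.4 (0.53 ± 0.14, adjusted p = 0.0743). Lamb1 was 19.0, 20.0 and 17.5 against 14.6, 15.7 and 13.4 (0.37 ± 0.10, adjusted p = 0.0811). In each of these genes all 3 dose 2 libraries were above all 3 controls.

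The fibrillar collagens did not move evenly over the dose 2 libraries. Col1a1 was 24.3 and 20.1 CPM in libraries A and B and 9.82 in library C, the lowest of all 27 testis libraries, against 12.9, 11.2 and 11.6 in controls. Without library C, 6 members passed (13.6% against 1.17% of all genes). DESeq2 and a fit of only the 6 libraries compared each called 8 (18.2% against 10.1% and 11.4% of all genes). Without the 2 libraries highest in germ cell markers, an alternative chosen after seeing the data, 4 passed (9.09% against 8.79% of all genes). Germ cell markers summed to 7945, 6608 and 11650 CPM in controls and to 4319 to 5190 at dose 2, with all 6 listed markers detected throughout. Of the 2 libraries left out, only control library C belongs to this comparison. The controls that remain still lay above every dose 2 library, so that setting cannot separate these markers from dose. Their part in these values was not tested. Peritubular and smooth muscle markers, all 5 detected, summed to 71.8 to 73.9 CPM in controls and 81.8 to 91.3 at dose 2, and their part was not tested.

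The doses were also compared directly, in the same fit. Between dose 2 and dose 1, 0 of 44 members passed, beside 0.227% of all genes, and 15 had an unadjusted p under 0.05 (3843 of all genes). The median was 0.21, 34 of 44 were positive, and for 10 members all dose 2 libraries were above all dose 1 libraries (22.7% against 13.3% of all genes), with none the other way (12.0% of all genes). Both chains of the main collagen IV trimer were among the 3 smallest p-values. Col4a2 was 31.1, 33.2 and 28.2 CPM at dose 2 and 21.7, 20.96 and 20.9 at dose 1 (0.53 ± 0.093, adjusted p = 0.0579), with F1 controls in between at 26.8, 22.9 and 26.7. Col4a1 was 34.0, 32.6 and 29.0 CPM against 18.5, 20.6 and 23.3 (0.60 ± 0.11, adjusted p = 0.0654), and Lamb2 read 0.48 ± 0.089 (adjusted p = 0.0654). Dose 2 and dose 1 libraries did not overlap in any of the 3. DESeq2 called 8 members (18.2% against 6.69% of all genes) and 7 passed without the 2 libraries highest in germ cell markers (15.9% against 3.52%). Without the filter on low counts 3 passed (6.82% against 0.318%), and 1 with total counts (2.27% against 0.264%).

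The 2 collagen IV genes lie head to head on mouse chromosome 8 and are read in opposite directions from start sites 21 bp apart, so their promoter windows, 250 bases before and 50 after each start, overlap by 78 bp (chr8:11312777-11312854, GRCm38.p6). They are printed because both genes are among the 3 smallest p-values of the comparison between doses, with the same sign. Sequences are from RefSeq, 5′ to 3′ on the strand of each gene, minus for Col4a1 (chr8:11312777-11313076) and plus for Col4a2 (chr8:11312555-11312854), with matches on either strand to the CCAAT and GGGCGG motifs in capitals.
Col4a1: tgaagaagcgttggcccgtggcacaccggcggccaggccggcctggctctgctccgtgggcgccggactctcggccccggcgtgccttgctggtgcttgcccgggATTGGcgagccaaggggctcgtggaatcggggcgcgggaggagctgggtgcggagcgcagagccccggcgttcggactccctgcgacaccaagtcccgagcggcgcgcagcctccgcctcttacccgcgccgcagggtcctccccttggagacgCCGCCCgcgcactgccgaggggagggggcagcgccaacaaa
Col4a2: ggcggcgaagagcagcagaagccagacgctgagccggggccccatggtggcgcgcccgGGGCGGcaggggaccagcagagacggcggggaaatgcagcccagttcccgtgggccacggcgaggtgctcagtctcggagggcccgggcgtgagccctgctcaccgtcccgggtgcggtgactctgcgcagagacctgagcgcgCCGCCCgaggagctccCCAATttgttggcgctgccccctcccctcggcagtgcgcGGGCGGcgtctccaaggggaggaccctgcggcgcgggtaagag
The Col4a1 window held 1 CCAAT and 1 GGGCGG match and that of Col4a2 held 1 and 3. The GGGCGG match of Col4a1 lies in the 78 bp overlap and is the same site as 1 of the 3 in the Col4a2 window, so these counts are not independent.

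In F2 testes, 33 to 36 of 44 members were below the offspring of control parents in each cross with an exposed parent, and all 15 calls were decreases. Over all genes, 48.5% to 52.1% were above those controls, and 0.816% to 5.33% were called. Those calls went both ways in each cross, from 77 higher and 80 lower with dose 1 mothers to 566 higher and 460 lower with dose 2 fathers. The members that fell were basement membrane chains and metalloproteinase inhibitors in the main: Timp2 in 4 crosses, Lamc1 in 3, Nid1 in 2, and Col4a2, Col18a1, Lama4, Timp1, Lum and Mfap5 in 1 each. All 5 comparisons use the same 3 control libraries, so they are not independent of one another.

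Timp2 changed most often. It was 249, 205 and 244 CPM in the 3 libraries of offspring of control parents. With exposed mothers it was 183, 205 and 183 at dose 1 and 175, 186 and 175 at dose 2. With exposed fathers it was 165, 188 and 179.8 at dose 1 and 156, 165 and 178 at dose 2, and with both parents at dose 2 it was 165, 165 and 153. Thus 14 of the 15 libraries with an exposed parent lay below the lowest control, library B, and only library B of the dose 1 mothers reached it. The log2 difference was -0.54 ± 0.079 for both parents (adjusted p = 0.00117, 1.46-fold lower), -0.49 ± 0.079 for dose 2 fathers (adjusted p = 0.00404), -0.39 ± 0.079 for dose 1 fathers (adjusted p = 0.00935) and -0.38 ± 0.079 for dose 2 mothers (adjusted p = 0.0191). For dose 1 mothers it was -0.30 ± 0.079 and missed the threshold (adjusted p = 0.0745). F1 testes gave 179, 185 and 144 CPM in controls, 160.2, 171 and 176 at dose 1 and 189, 172 and 155 at dose 2, so the F1 groups overlapped one another and lay below all 3 F2 control libraries. Whether the F2 controls were high or the other F2 groups low cannot be told apart with 1 control group in the generation. The call for dose 2 fathers held in all 12 other settings tried, and that for both parents in 12 of 13, failing with only the 6 libraries compared (adjusted p = 0.0567). Without control library A the adjusted p was 0.0666 for dose 1 fathers and 0.127 for dose 2 mothers, and without control library C it was 0.0509 and 0.113. For dose 2 mothers it was 0.0637 and 0.0876 without library A or C of the cross and 0.0570 with only the 6 libraries compared.

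The Timp2 promoter window (chr11:118355362-118355661, minus strand, GRCm38.p6, printed from RefSeq) is shown because Timp2 was the most often called member. Capitals mark its 1 CCAAT and 1 GGGCGG match.
Timp2: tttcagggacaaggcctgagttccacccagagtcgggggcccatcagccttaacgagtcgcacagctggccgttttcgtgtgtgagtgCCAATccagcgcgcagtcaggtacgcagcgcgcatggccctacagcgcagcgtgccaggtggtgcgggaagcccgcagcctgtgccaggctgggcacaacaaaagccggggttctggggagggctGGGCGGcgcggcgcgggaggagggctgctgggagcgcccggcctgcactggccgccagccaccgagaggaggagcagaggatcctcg

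Offspring of dose 1 mothers had 1 of 44 members called, beside 0.816% of the 19241 genes tested. This was Nid1, for nidogen 1, the protein that links the laminin and collagen IV networks, at 28.7, 23.4 and 28.2 CPM against 37.1, 36.0 and 39.9 in controls (-0.51 ± 0.12, adjusted p = 0.0465), with no overlap. Lama5, a laminin chain of mature basement membranes, gave -0.41 ± 0.13 without overlap and did not pass (adjusted p = 0.132). Over the list, 12 members had an unadjusted p under 0.05 (27.3% against 17.9% of all genes), 34 of 44 were negative and the median was -0.18 against 0.00 for all genes. The Nid1 call was marginal: the adjusted p was 0.0514 with RLE factors, 0.0613 with total counts and 0.0504 with the replicate letter as a block, and it ran from 0.102 to 0.189 without control library A or C or any library of this cross.

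Offspring of dose 2 mothers had 3 of 44 called, beside 1.70% of all genes. Lamc1, the gamma chain shared by most laminin trimers, was 11.7, 11.4 and 11.6 CPM against 17.0, 15.2 and 20.0 in controls (-0.59 ± 0.12, adjusted p = 0.0167, 1.51-fold lower). Mfap5, a microfibril-associated glycoprotein gene, was 2.00, 1.99 and 1.47 CPM against 4.29, 4.01 and 4.50 (-1.23 ± 0.25, adjusted p = 0.0187, 2.35-fold lower). Timp2 was the third. In all 3 genes the highest library of the cross lay below the lowest control, as it did for 20 of 44 members (45.5% against 10.8% of all genes), with the opposite for 2 (4.55% against 10.9%). In total 22 members had an unadjusted p under 0.05 (50.0% against 18.5% of all genes) and the median was -0.28. Without control library A the adjusted p of Lamc1 was 0.0652 and that of Mfap5 0.0861, without control library C they were 0.106 and 0.0900, and without library B or C of the cross they were 0.0559 and 0.0632 for Lamc1 and 0.0521 and 0.0967 for Mfap5.

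Dose 1 fathers gave 3 of 44 called, beside 3.97% of all genes. Besides Timp2 these were Nid1, at 26.0, 27.2 and 28.6 CPM (-0.47 ± 0.12, adjusted p = 0.0298), and Lum, which encodes the collagen-binding proteoglycan lumican, at 1.75, 1.26 and 1.30 CPM against 2.61, 3.05 and 2.39 in controls (-0.90 ± 0.23, adjusted p = 0.0333). None of the 3 overlapped its controls. All libraries of the cross lay below all controls for 20 of 44 members (45.5% against 11.4% of all genes), with the opposite for 3 (6.82% against 11.5%). The median was -0.21 and 16 members had an unadjusted p under 0.05 (36.4% against 18.4% of all genes). Both calls were lost without control library A (0.0896 for Nid1 and 0.0930 for Lum) or C (0.115 and 0.0589) and without library B (0.0996 and 0.143) or C (0.0853 and 0.133) of the cross. Nid1 was also lost without library A of the cross (0.0874) and Lum without control library B (0.0632).

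Dose 2 fathers gave 5 of 44 called, beside 5.33% of all genes. Apart from Timp2, all of them build basement membranes. Lama4, a laminin chain of vessels, was 3.76, 4.60 and 4.28 CPM against 5.40, 6.45 and 6.37 in controls (-0.53 ± 0.14, adjusted p = 0.0339). Col4a2 was 17.7, 17.95 and 24.2 CPM against 26.4, 26.0 and 28.8 (-0.44 ± 0.12, adjusted p = 0.0424). Neither overlapped its controls. Col18a1, the collagen that carries the endostatin fragment, was 15.3, 17.5 and 20.8 CPM against 25.4, 20.3 and 29.1 (-0.48 ± 0.13, adjusted p = 0.0376), and Lamc1 was 11.4, 12.8 and 15.3 against 17.0, 15.2 and 20.0 (-0.40 ± 0.12, adjusted p = 0.0495). In both, library C reached the lowest control. All libraries of the cross lay below all controls for 7 members (15.9% against 13.3% of all genes), with the opposite for 1 (2.27% against 15.4%). Library C was also the highest of the cross for the fibrillar collagens, with Col1a1 at 11.7, 23.1 and 42.6 CPM in libraries A, B and C, and peritubular and smooth muscle markers ran alongside at 64.0, 76.2 and 92.0 CPM. Without library C 9 members passed (20.5% against 5.09% of all genes). Without control library B 9 also passed (20.5% against 16.1%). The count was 1 (2.27%) without library A or B of the cross (0.385% and 0.539% of all genes), without control library A or C (0.421% and 0.452%) and with only the 6 libraries compared (2.46%).

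With both parents at dose 2, 3 of 44 were called, beside 4.59% of all genes. Besides Timp2 they were Lamc1, at 14.2, 13.1 and 11.1 CPM (-0.45 ± 0.12, adjusted p = 0.0333), and Timp1, at 0.60, 0.69 and 0.90 CPM against 1.71, 1.53 and 1.132 (-1.02 ± 0.29, adjusted p = 0.0492, 2.02-fold lower). Neither overlapped its controls. At under 1 CPM in all 3 libraries of this group, Timp1 was near the floor. The median over the list was -0.25, 36 of 44 were negative and 19 had an unadjusted p under 0.05 (43.2% against 22.1% of all genes). All libraries of this group lay below all controls for 15 members (34.1% against 10.2% of all genes), with the opposite for 1 (2.27% against 9.86%). Without libraries A and B, which held the epididymis markers, 9 members passed (20.5% against 13.9% of all genes), but Timp1 did not (adjusted p = 0.272); this was chosen after seeing the data and leaves 1 library in the group, assumed to vary like the others. Timp1 lost its call in 10 of 13 other settings and Lamc1 in 5. The count was 1 (2.27%) without control library A or C (0.596% and 0.920% of all genes) or without library B of this group (0.977%). It was 5 without control library B (11.4% against 12.4% of all genes) and 0 with only the 6 libraries compared.

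**Figure D3:**
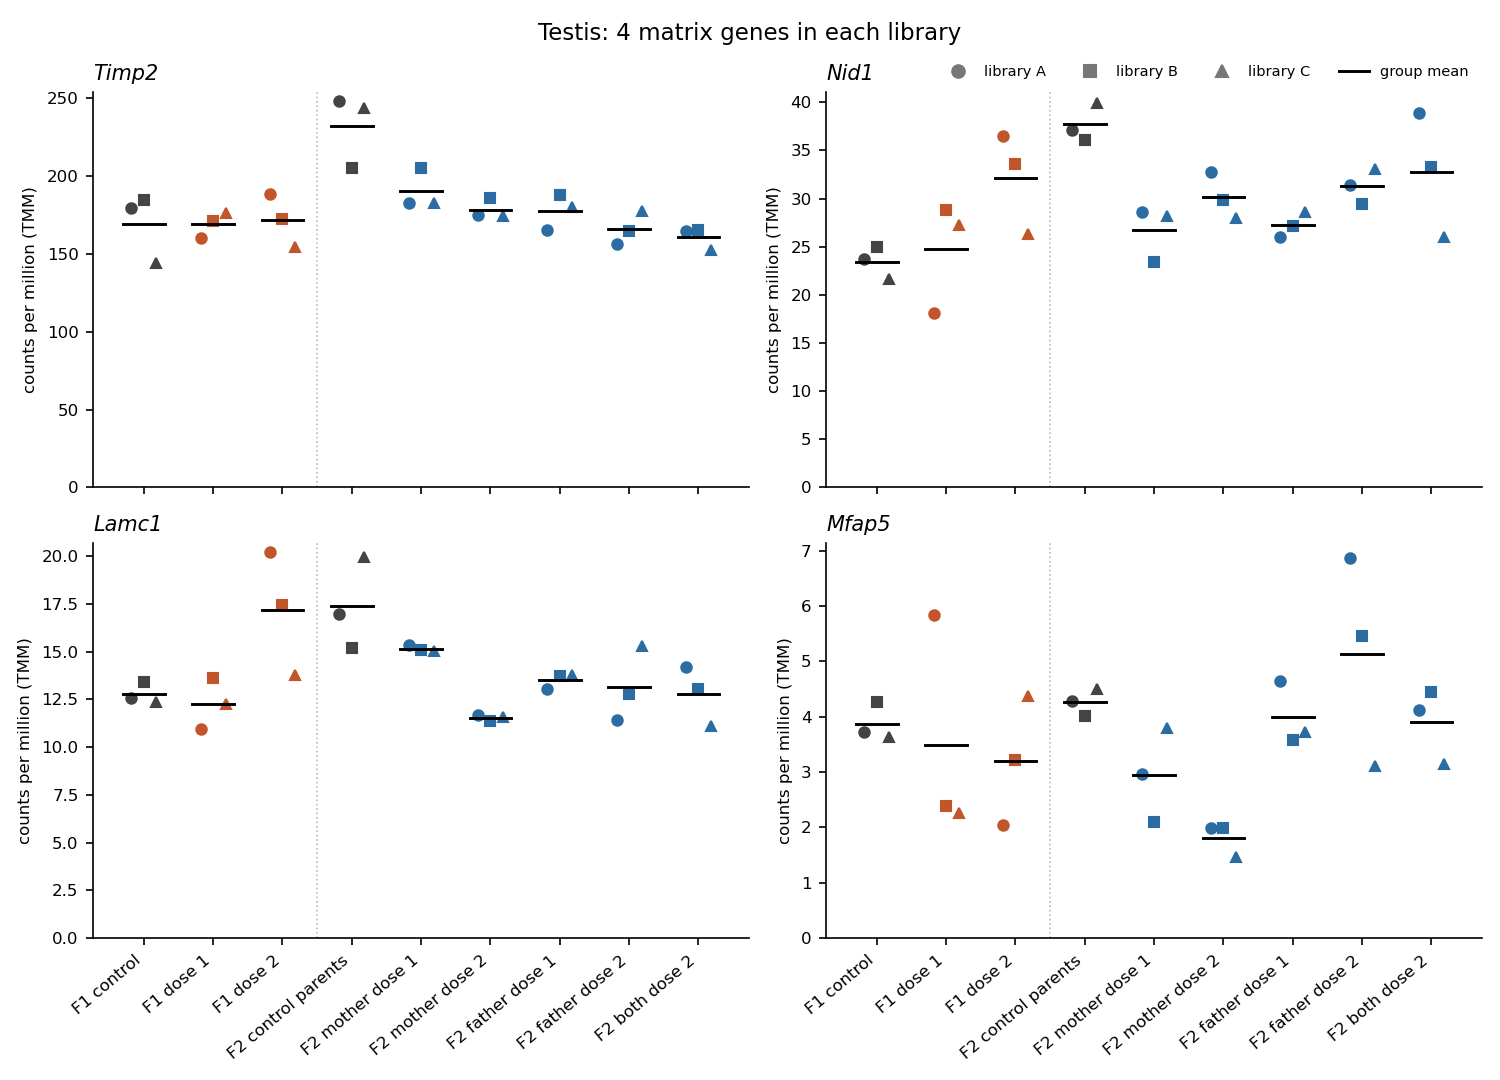
Level in CPM (scaled within the testis) of Timp2, Nid1, Lamc1 and Mfap5, 1 point per library, in all 9 testis groups (n = 3 libraries per group, horizontal bars mark group means). For Timp2 the 3 libraries of offspring of control parents (205 to 249) lie above all libraries of the other groups except library B of the dose 1 mothers, which reaches the lowest of them.

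By role, the signs in F2 testes were most one-sided for collagen VI and for nidogens and perlecan. All 3 collagen VI chains and all 3 nidogen and perlecan genes were negative in all 5 crosses, with class medians from -0.40 to -0.73 and from -0.22 to -0.51. With dose 2 fathers, however, the collagen VI value nearest to 0 was -0.004. The median log2 distance of the 3 chains from the tissue mean ran from -0.56 to 0.63 over the libraries of that cross. In controls it ran from 0.40 to 0.58, so the groups overlapped. Fibrillar collagens were negative for 5 of 5 members in 4 crosses and 4 of 5 with dose 1 mothers, with medians from -0.34 to -0.83, yet no fibrillar collagen passed the test. Col1a1 was 35.5, 53.0 and 21.7 CPM in offspring of control parents. Col1a2 was 51.3, 66.2 and 45.0 CPM in those controls and 35.4, 33.1 and 29.9 with both parents at dose 2, without overlap (-0.74, adjusted p = 0.0759). Nid2, named here after its values were seen, was 17.7, 32.8 and 11.8 CPM in controls and 8.78, 10.3 and 9.30 with dose 1 mothers, without overlap (-1.15 ± 0.35, adjusted p = 0.133). Laminins were negative for 5 or 6 of 7, with medians from -0.11 to -0.31. Among fibronectin and matricellular genes 2 to 4 of 6 were positive, and among elastic fibre genes 1 to 3 of 6.

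Cell type markers of the testis interstitium and tubule wall were also highest in the offspring of control parents. Leydig cell markers summed to 1260 to 1317 CPM there and to 744 to 1226 in the other F2 groups, and macrophage markers to 38.1 to 39.5 against 20.4 to 34.4, so neither list overlapped. Peritubular and smooth muscle markers summed to 92.5 to 107.7 CPM against 64.0 to 97.1, stromal fibroblast markers to 32.5 to 39.7 against 26.96 to 34.9, and Sertoli markers to 693 to 941 against 589.6 to 824. Germ cell markers were not highest there, at 4376 to 4584 CPM in those controls and 5400 to 5722 with dose 1 mothers. They summed to 4160 to 6821 with both parents at dose 2 and to 3771 to 4959 in the remaining crosses, overlapping the controls. Every marker of these lists was detected in every library. Their part in the lower matrix levels was not tested. Control library B, which had the lowest Timp2 of the controls, also had their lowest Sertoli sum (693 against 940 and 941). The same library had their highest Col1a1, Col1a2 and Nid2, and no link between these values was tested.

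**Figure D4:**
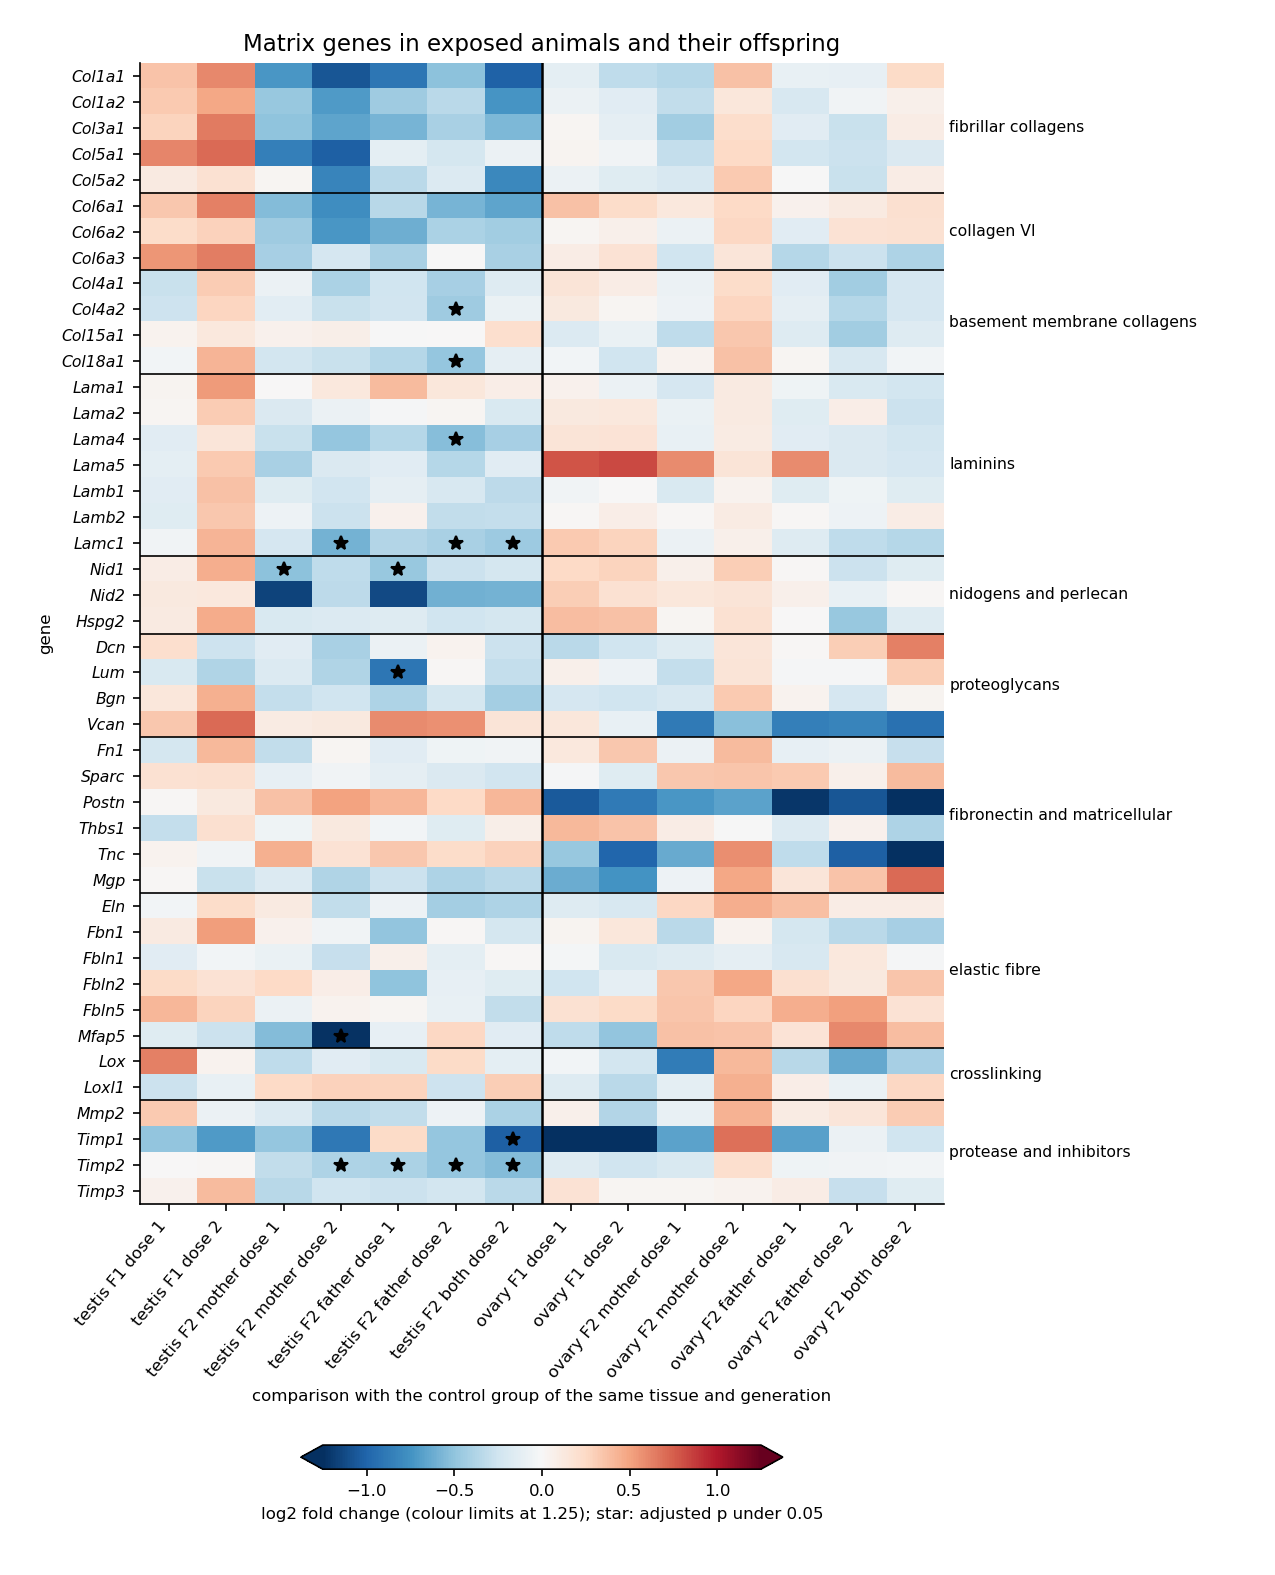
Log2 difference from the unexposed group of the same generation as colour (blue lower, red higher) for each of the 44 genes, in rows grouped by role, in the 14 comparisons with control (columns, 7 per tissue). Stars mark adjusted p under 0.05: the 15 of them are all in F2 testes and all below 0, from -0.38 to -1.23.

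Around the 44 members, 76 genes that process, bind or signal through the matrix were counted, of which 75 were tested in the testis. In F1 testes 0 of 75 passed at dose 1 and 1 (1.33%) at dose 2, beside 0.0317% and 2.21% of all genes. The latter was P4ha3, for a subunit of the prolyl hydroxylase that modifies collagen chains, at 0.14, 0.083 and 0.29 CPM against 0.69, 0.78 and 0.93 in controls (-2.18 ± 0.47, adjusted p = 0.0471). At dose 1 it was 1.00, 2.22 and 1.134 CPM, and between the doses the log2 difference was -3.04 ± 0.46 (adjusted p = 0.0376). P4ha3 thus lay below its controls at dose 2 while most collagens lay above theirs, but at under 1 CPM in both groups it was near the floor. Other settings are given for the 44 members only, not for the 76 genes around them. In F2 testes 0 of 75 passed for dose 1 mothers (0.816% of all genes). For dose 2 mothers 2 were lower (2.67% against 1.70%), and for dose 1 fathers 2 were lower and 1 higher (4.0% against 3.97%). For dose 2 fathers 5 were lower (6.67% against 5.33%), and with both parents at dose 2 9 were lower (12.0% against 4.59%).

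Smoc1, which encodes a calcium-binding basement membrane glycoprotein related to Sparc, fell in 3 crosses. It was 28.7, 28.8 and 27.7 CPM in offspring of control parents, 24.2, 23.5 and 22.3 with dose 1 fathers (-0.29 ± 0.071, adjusted p = 0.0292), 18.4, 18.6 and 19.5 with dose 2 fathers (-0.60 ± 0.071, adjusted p = 6.373e-04) and 20.5, 21 and 22.3 with both parents at dose 2 (-0.43 ± 0.071, adjusted p = 0.00329). No library of these crosses reached a control library. Adamts2, the protease that removes the amino-terminal propeptide of fibrillar collagens, fell with dose 2 mothers (-0.49 ± 0.11, adjusted p = 0.0316), with dose 2 fathers (-0.40 ± 0.11, adjusted p = 0.0446) and with both parents at dose 2 (-0.51 ± 0.11, adjusted p = 0.0166). Adamts5, a protease that cuts aggregating proteoglycans, fell with dose 2 mothers (-0.58 ± 0.13, adjusted p = 0.0287). With dose 1 fathers Ltbp1, which holds latent TGF-beta in the matrix, fell (-0.59 ± 0.14, adjusted p = 0.0214) and Itgav, an integrin chain, rose (0.66 ± 0.17, adjusted p = 0.0353). Plat, for tissue plasminogen activator, and Itgb5, an integrin chain, fell with dose 2 fathers (-0.46 ± 0.11 and -0.43 ± 0.10, adjusted p = 0.0248 and 0.0264). Mmp14, a membrane-bound collagenase, fell with both parents at dose 2 (-0.35 ± 0.080, adjusted p = 0.0205).

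In the ovary, no matrix gene passed the test in any of the 7 comparisons with an unexposed group or between the doses, in a tissue where few genes of any kind did. At dose 1 in F1, 0 of 44 members and 0% of the 17168 genes passed, 2 members had an unadjusted p under 0.05 (904 of all genes), DESeq2 called none, and 24 of 44 were positive around a median of 0.03. At dose 2 the counts were 0 of 44 and again 0% of all genes, with 3 members at an unadjusted p under 0.05 (2053 of all genes) and 19 of 44 positive around -0.08. DESeq2 called 1 member at dose 2, Timp1 (2.27% against 1.83% of all genes). Between the doses 0 of 44 members and 0% of all genes passed, none of the members had an unadjusted p under 0.05 (809 of all genes), DESeq2 called none of the members, and the smallest p-values belonged to Mmp2, a gelatinase gene (-0.43 ± 0.22), Tnc (-0.52 ± 0.41) and Col18a1 (-0.22 ± 0.18).

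Timp1 had the largest F1 difference. It was 481, 473 and 206 CPM in controls, 178, 87.3 and 185 at dose 1 and 60.8, 153 and 137 at dose 2, so that no exposed library reached a control (-1.37 ± 0.45, adjusted p = 0.726 at dose 1, and -1.72 ± 0.45, adjusted p = 0.407 at dose 2). In the offspring of control parents it was 83.3, 40.8 and 403 CPM, a spread wider than the F1 difference. Markers of luteal cells, all detected, moved with library as well, at 6571, 5383 and 1823 CPM in the F1 controls, 4278, 2958 and 2376 at dose 1 and 2511, 3537 and 5418 at dose 2, and their part in Timp1 was not tested. Lama5 went the other way, at 35.1, 41.3 and 46.7 CPM in controls, 77.1, 72.6 and 63.5 at dose 1 and 101.6, 54.9 and 61.6 at dose 2. Its exposed libraries were all above the controls at both doses (0.79 ± 0.23, adjusted p = 0.726, and 0.82 ± 0.23, adjusted p = 0.407). Oviduct markers were highest in the dose 2 library with the highest Lama5 (1187 CPM in library A). Without library A of dose 2 the Lama5 difference was 0.51 (adjusted p = 0.656). Leaving out all 3 libraries high in oviduct markers was chosen after seeing the data and leaves 1 library at dose 2, assumed to vary like the others. Lama5 then read 0.69 at dose 1 and 0.48 at dose 2 (adjusted p = 0.635 and 0.940), Timp1 read -1.18 and -1.31 (adjusted p = 0.996 and 0.940), and 0 members were called.

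Tnc was 865, 755 and 852 CPM in F1 controls against 222, 509 and 511 at dose 2, without overlap (-0.99 ± 0.41, adjusted p = 0.411). Its offspring of control parents spanned 612, 141 and 1309 CPM. Nid2, for nidogen 2, was 82.6, 117 and 117 CPM in F1 controls and 132, 127 and 135 at dose 1 (0.31 ± 0.14, adjusted p = 0.726). The lowest dose 1 library lay above the highest control.

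In F2 ovaries, offspring of dose 1 mothers had 0 of 44 members called, beside 0% of the 17454 genes tested, with 7 members at an unadjusted p under 0.05 (1606 of all genes), 0 by DESeq2 and a median of -0.10. Vcan was 197, 133 and 126 CPM against 206, 167 and 469 in controls (-0.88 ± 0.31, adjusted p = 0.399), and without control library C the log2 difference was -0.29. Lamb1 was 366, 362 and 328 CPM against 381, 414 and 408, a smaller distance without overlap (-0.19 ± 0.070, adjusted p = 0.429), and Fbn1 read -0.33 ± 0.13 (adjusted p = 0.442). Offspring of dose 1 fathers also had 0 of 44, beside 0% of all genes, with 5 at an unadjusted p under 0.05 (1681 of all genes), 0 by DESeq2 and a median of -0.07. Fbln5 was 31.3, 27.6 and 31.0 CPM against 19.2, 23.4 and 23.1 (0.46 ± 0.15, adjusted p = 0.385), above all controls. Vcan (-0.85 ± 0.31) and Col6a3 (-0.35 ± 0.16) followed at adjusted p = 0.417 and 0.503, and without control library C Vcan read -0.27 (adjusted p = 0.837).

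Offspring of dose 2 mothers had the most one-sided values of any ovary group, with 40 of 44 members positive (90.9% against 48.1% of all genes) and a median of 0.24 against -0.01. None of the 44 passed, beside 0% of all genes, 5 had an unadjusted p under 0.05 (1017 of all genes), DESeq2 called none, and for 5 members all libraries lay above all controls (11.4% against 5.20% of all genes). Mgp was 319.5, 308 and 359 CPM against 256, 193 and 256 (0.48 ± 0.18, adjusted p = 0.786). Fn1, for fibronectin, the adhesive glycoprotein of provisional matrix, was 396, 435 and 411 CPM against 278, 285 and 381 (0.40 ± 0.17, adjusted p = 0.794), and Loxl1 read 0.44 ± 0.20 (adjusted p = 0.832). Mgp and Fn1 did not overlap their controls. Stromal fibroblast markers, all 5 detected, summed to 413 to 554 CPM in this group and 345.5 to 443 in controls, and their part was not tested. Neither F2 cross with dose 1 parents nor the other dose 2 crosses had a positive median in the ovary, but whether the crosses differ from one another was not tested.

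Offspring of dose 2 fathers had 0 of 44 called, beside 0.00573% of all genes (1 gene), with 7 at an unadjusted p under 0.05 (2765 of all genes) and a median of -0.10. Hspg2 was 589, 566 and 600.1 CPM against 728, 756 and 935 in controls (-0.47 ± 0.12, adjusted p = 0.184). Mfap5 was 28.6, 35.8 and 51.7 CPM against 21.5, 27.8 and 26.7 (0.60 ± 0.17, adjusted p = 0.184), and Fbln5 was 34.6, 27.7 and 32.2 against 19.2, 23.4 and 23.1 (0.52 ± 0.15, adjusted p = 0.186). All 3 were outside the control range, DESeq2 called all 3 (6.82% against 2.11% of all genes), and without library A of the cross 1 member passed (2.27% against 0.611%), Mfap5 (adjusted p = 0.0439).

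With both parents at dose 2, 0 of 44 were called, beside 0.688% of all genes, although 10 had an unadjusted p under 0.05 (4275 of all genes) and the median was -0.09. Mgp was 336, 291 and 524 CPM against 256, 193 and 256 (0.71 ± 0.19, adjusted p = 0.0575). Fbn1 was 238, 261 and 249 CPM against 351, 302 and 344 (-0.41 ± 0.13, adjusted p = 0.0846), and Lamc1 was 296, 341 and 251 against 351, 365 and 421 (-0.36 ± 0.12, adjusted p = 0.0886). None of the 3 overlapped its controls. DESeq2 called 4 members (9.09% against 10.7% of all genes). Without library B of this group 2 passed (4.55% against 8.16%), Mgp (adjusted p = 0.0290) and Lamc1 (adjusted p = 0.0313). Without library C the Mgp difference was 0.40 (adjusted p = 0.281). Lamc1 was thus below its controls with both parents at dose 2 in each tissue and passed in the testis alone, and no test compared the tissues. Of the 76 genes around the matrix, 0 passed in every ovary comparison.

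**Figure D5:**
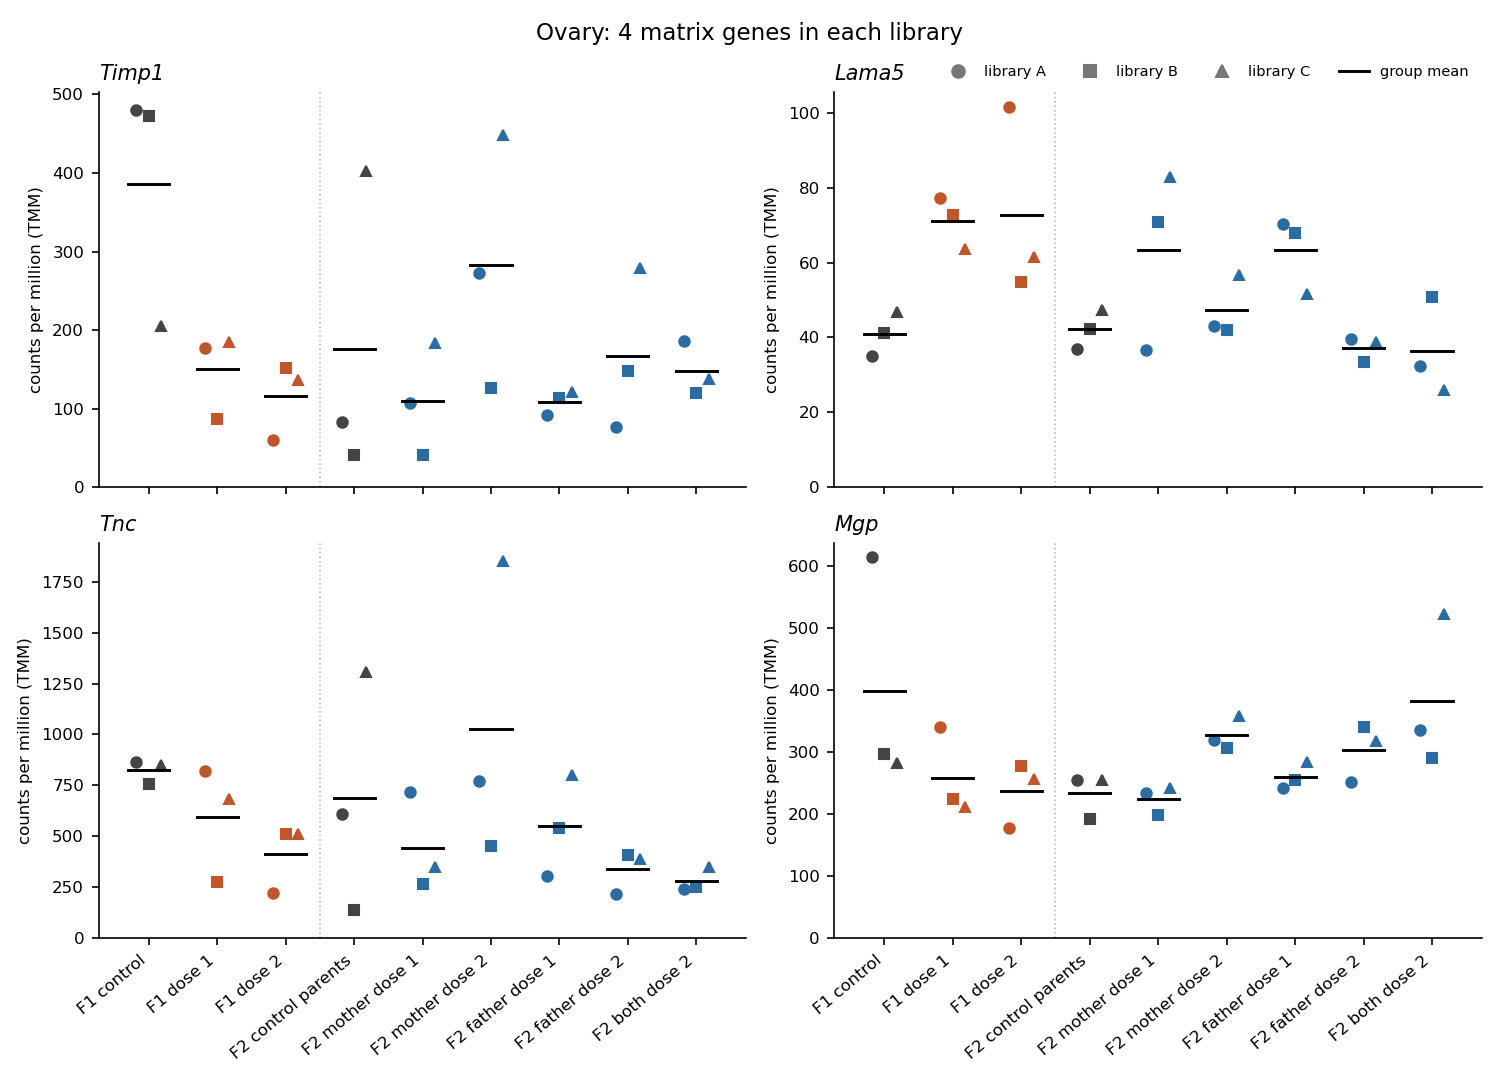
Level in CPM (scaled within the ovary) of Timp1, Lama5, Tnc and Mgp, 1 point per library, in all 9 ovary groups (n = 3 libraries per group, horizontal bars mark group means). Timp1 spans 60.8 to 185 in exposed F1 libraries and 206 to 481 in F1 controls, and 40.8 to 403 within the offspring of control parents alone.

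Promoter windows of 300 bases were at hand for 28 of the 44 members, 34 promoters in all, among 32851 in the RefSeq table for GRCm38.p6. On either strand, the GC box GGGCGG was in 67.6% of member promoters and 35.7% of all, the CCAAT box in 32.4% and 37.4%, and the TATA box TATAAA in 11.8% and 13.6%. None of the 3 motifs contains another. Median GC content was 60.3% against 52.7%. These are letter matches in a fixed window and describe neither binding nor control.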

How the data were processed

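The authors deposited a table of raw counts per gene for each tissue, whole numbers that were not normalized. The submitters' processing notes name FastQC 1.19, bcl2fastq 2.20, Bowtie2 2.4.5, TopHat2 2.1.1, featureCounts 2.0.3, SAMtools 1.13 and DESeq2 1.32.0, with mm39 as the build; they list no order or roles. TRIZOL extraction, a stranded mRNA ligation kit and reads of 100 nt are stated per the labels. Which strand was counted, and with which annotation, is not given in the sources used here, and reads of overlapping genes may be shared. The codes that head the F2 columns were matched to the labelled crosses by reading the male first, an order the headers do not state. If the female comes first, the mother and father crosses at each dose swap in all results above and below.

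The 44 members, the gene lists around them and the tests were chosen with earlier results of these data known. Counts were tested with edgeR 4.0.16 (R 4.3.3, limma 3.58.1): quasi-likelihood test with robust dispersion, trimmed mean (TMM) scaling, filterByExpr with a minimum count of 10, and Benjamini-Hochberg adjustment over all genes tested, with a threshold of 0.05, below which a gene is called. F1 fits held 9 libraries per tissue, F2 fits 18, and the tissue comparison 12 unexposed libraries with a term for generation. The controls are shared within a generation. The 133 entries given by symbol alone, without a gene ID, stayed in the fits. CPM are scaled within a tissue unless stated, with a prior count of 2 where a log2 level is used, and RPKM use GENCODE M21 exon lengths. Log2 differences carry standard errors. Members were named by rule: every called member, the 3 smallest p-values where fewer than 3 passed, the most abundant member of each class, the 5 largest tissue differences, and up to 3 called genes per comparison among the 76 around the matrix. Cell type markers are sums over fixed lists. The fits were also run on counts simulated with known changes. How well small changes were recovered is not reported here, so that run says nothing about the calls above.

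No pair of libraries in a group agreed within sampling noise. Same-lettered libraries deviated together most clearly for F1 dose 1 against control in the ovary (correlations 0.188, 0.202 and 0.350, a sign in the data, since no label ties the letters), and with the letter as a block the count of members called there stayed 0. Alternatives were RLE factors, total counts, no filter, DESeq2 1.42.0, a replicate block, only the libraries compared, and leaving out libraries.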

Additional observations from a re-analysis of the deposited data

Results flagged for a closer look

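Mfap5, the microfibril-associated glycoprotein gene, lay on opposite sides of its controls in the 2 tissues of offspring of dose 2 mothers. In the testis its log2 difference from the offspring of control parents was -1.23, with all 3 libraries (1.47 to 2.00 CPM) below all 3 controls (4.01 to 4.50). In the ovary it was 0.36, with all 3 libraries (28.1 to 36.3 CPM) above all 3 controls (21.5 to 27.8), and it did not pass the test there. The difference between the tissues was not tested.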

How the results depend on the processing

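Timp2 between the tissues read 0.17, and -0.11 with RLE factors (adjusted p = 0.450) and with DESeq2. No other log2 difference recomputed for a named gene reversed. Percentages in brackets below are the share of all genes called under the same setting. Settings that leave out libraries high in germ cell, epididymis or oviduct markers, and total counts without scaling factors, were chosen after seeing the data. DESeq2 called 8 members in F1 testes at dose 2 (10.1%) and 8 (6.69%) between the doses, and in F2 testes 3 for dose 1 mothers (3.38%), 9 for dose 2 mothers (4.97%), 6 for dose 1 fathers (6.66%) and 5 for both parents (8.15%); in ovaries it called 1 at F1 dose 2 (1.83%), 3 for dose 2 fathers (2.11%) and 4 for both parents (10.7%). With only the 6 libraries compared the counts were 8 at F1 dose 2 (11.4%), 1 for dose 2 fathers (2.46%) and 0 for both parents in the testis. Without the filter on low counts 3 (0.318%) passed between the F1 doses in the testis. Total counts gave 1 between the doses (0.264%), 0 for dose 1 mothers and 3 for dose 2 fathers (4.65%), and RLE factors gave 0 for dose 1 mothers. Without libraries highest in germ cell markers 4 passed at F1 dose 2 (8.79%) and 7 between the doses (3.52%), and without those with epididymis markers 9 (13.9%) passed for both parents. Leaving out single libraries gave 0 to 6 at F1 dose 2, 0 to 3 for dose 1 mothers, 0 to 6 for dose 2 mothers, 0 to 5 for dose 1 fathers, 1 to 9 for dose 2 fathers and 1 to 5 for both parents in the testis, and in the ovary 0 to 1 for dose 2 fathers and 0 to 2 for both parents; the tissue comparison gave 42 to 44. The cause of these changes was not tested.

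Same-lettered libraries deviated together most clearly in the comparison of F1 dose 1 ovaries with control. The main fit of that comparison, like all the others, had no term for the letter. The letter as a block was an alternative only. In F2 ovaries the correlations were also 0.197, 0.263 and 0.0968 for dose 1 mothers and 0.216, 0.0654 and 0.183 for dose 2 fathers. With a replicate block 0 members passed for dose 1 mothers (1 without it), 4 for dose 2 mothers, 3 for dose 1 fathers, 5 for dose 2 fathers and 2 for both parents in the testis, and 0 in F1 testes and in all ovary comparisons. In 4 other comparisons (dose 1 mothers and dose 1 fathers in the testis, dose 1 mothers and dose 2 fathers in the ovary) all 3 libraries correlated best with their own letter. In the testis these correlations were near 0, at 0.0283, 0.0651 and 0.0630 for dose 1 mothers and 0.0366, 0.0190 and 0.0514 for dose 1 fathers. With 3 libraries per group such a match says little about pairing.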
